A study of Mus musculus with 2 samples.

Results

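The microRNA genes described here are Mir101a, Mir101b, Mir103-1, Mir103-2, Mir107 and Mir328, 6 of the 2202 microRNA genes in the count tables. They were picked by symbol because earlier work reports that their products repress App or Bace1, a rule that uses no measured value. The choice was made with earlier results of these data known. Small RNA below 30 bases was sequenced from total RNA. The tissue was left cerebral cortex, taken from adult males of the 5xFAD/CAST strain at 8 to 10 months of age. The labels give 1 group of 2 libraries, called biological replicates 1 and 2, from separate tissue samples that share a donor identifier, so the spread between the libraries may be technical. 5xFAD is a transgenic model of amyloid deposition in which a neuronal Thy1 promoter drives the transgenes, mutant human APP among them; CAST is the usual short name of a wild-derived inbred strain. Whether the sampled animals carried the transgenes is not given in the labels, and no control group was analysed here. The results are therefore levels, their order and their difference between the libraries.

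App encodes the amyloid precursor protein, a membrane protein of neurons and other cells. The protease encoded by Bace1, beta-secretase, makes the first cut that releases amyloid-beta peptide from it. A microRNA is cut from a hairpin precursor and guides an Argonaute protein to messenger RNAs, mostly through pairing of its seed, bases 2 to 8, with the 3′ untranslated region (UTR). MiR-101 has been reported to repress App, and miR-107, its relative miR-103 and miR-328 have been reported to repress Bace1. Both the App and the Bace1 messenger are abundant in cortical neurons.

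Mature sequences were found in the RefSeq table (build GRCm38.p6) for 5 of the 6 genes, all except Mir328. The arms from the 3′ side of the hairpins, which are the ones tied to App and Bace1, are shown because their likeness decides which genes a read can be assigned to. They are written 5′ to 3′, with the seed in capitals.

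miR-101a-3p (Mir101a, chr4:101346957-101346977, minus strand): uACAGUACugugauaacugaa

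miR-101b-3p (Mir101b, chr19:29135338-29135356, plus strand): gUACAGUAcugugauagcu

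miR-103-3p (Mir103-1, chr11:35782447-35782469, plus strand, and Mir103-2, chr2:131288103-131288125, plus strand): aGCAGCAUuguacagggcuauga

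miR-107-3p (Mir107, chr19:34820700-34820722, minus strand): aGCAGCAUuguacagggcuauca

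By seed these fall into a group of miR-103 with miR-107 and a miR-101 pair. MiR-103-3p and miR-107-3p have the seed GCAGCAU, which no other mature microRNA of the table has. Over 23 bases they differ by the substitution G22C (miR-103-3p base first, counted from its 5′ end). The miR-101 arms match each other over 21 bases of the Mir101b hairpin except for A16G, counted from the 5′ end of miR-101a-3p. The annotated start of miR-101b-3p lies 1 base further 5′, so its annotated seed, UACAGUA, is shifted against that of miR-101a-3p, ACAGUAC. No other mature microRNA of the table shares either seed. Over the 6 bases 2 to 7, miR-101a-3p also matches miR-144-3p, a red blood cell microRNA, and miR-101b-3p also matches miR-582-5p. The 5p arms of miR-103 and miR-107 are alike as well and share the seed GCUUCUU.

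miR-103-1-5p (Mir103-1): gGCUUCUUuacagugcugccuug

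miR-103-2-5p (Mir103-2): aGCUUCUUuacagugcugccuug

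miR-107-5p (Mir107): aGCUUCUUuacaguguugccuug

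The 5p arms of Mir103-1 and Mir103-2 differ by G1A, and those of Mir103-2 and Mir107 by C16U, each counted from the 5′ end.

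The genes lie apart from each other in the genome (mm10, GENCODE M21), and no annotated microRNA gene lay closer than 463 bases to any of them. Mir103-1 (chr11:35782396-35782481), Mir103-2 (chr2:131288052-131288137) and Mir107 (chr19:34820687-34820773) are in introns of Pank3, Pank2 and Pank1, on the strand of these hosts. The Pank genes encode pantothenate kinases, which carry out the first step of coenzyme A synthesis. Mir101b (chr19:29135279-29135375) is in an intron of Rcl1, which acts in ribosomal RNA processing. Mir101a (chr4:101346945-101347027) overlaps an annotated exon of the long non-coding RNA E130102H24Rik on the same strand. Mir328 (chr8:105308364-105308460, minus strand) overlaps an exon of Elmo3, which encodes an adaptor of cell engulfment and motility, but on the opposite strand.

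The libraries held 16403925 and 16991914 reads, and 4929428 (30.1%) and 4441328 (26.1%) of them were counted in the sense direction of a microRNA gene. Levels are these counts scaled to 1000000 such reads, called assigned reads here (CPM). They are not divided by length. A single read was worth 0.203 CPM in replicate 1 and 0.225 CPM in replicate 2. Summed over the lists, markers of brain were far above those of muscle and liver, though single genes overlapped. Mir128-1, Mir128-2, Mir137, Mir132 and Mir9-3 exceeded every muscle and liver gene listed. Mir9-1 (mean 33.4 CPM), Mir9-2 (3.02 CPM) and the Mir124a genes lay below Mir206 of muscle (40.7 CPM) and Mir122 of liver (59.9 CPM). The neuronal list of 10 genes, of which 8 had at least 10 reads in each library, summed to 48588 and 60407 CPM, and the higher sum of replicate 2 came from Mir132 (19682 and 44698 CPM). The 4 muscle genes, of which only Mir206 was detected, summed to 35.5 and 46.8 CPM, with Mir1a-1 and Mir133a-1 at 0 reads, and the 2 liver genes to 81.1 and 64.4 CPM. The neuronal Mir124a-1, Mir124a-2 and Mir124a-3 had at most 21 reads each. They are copies that give 1 mature microRNA. Reads mapping to several places, 38.5% of replicate 1 and 33.0% of replicate 2, were listed apart from the gene counts. Low counts of genes with numbered copies, the muscle genes Mir1a-1 and Mir133a-1 among them, thus do not show that their mature microRNAs were absent.

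Mir328 had by far the most assigned reads of the 6 genes. It had 60373 reads in replicate 1 and 52518 in replicate 2, which is 12247 and 11825 CPM, or 12036 ± 299 CPM (SD, n = 2). The libraries were close to each other, and it ranked 18th and 16th among all microRNA genes in them. Alone it took 1.22% and 1.18% of the assigned reads. Mir328 accounted for 84.5% of the reads of the 6 genes in replicate 1 (Wilson 95% interval 84.2 to 84.8%) and for 74.0% in replicate 2 (73.7 to 74.3%). This and all other intervals given here cover counting error only. Its share was lower in replicate 2 while its own level differed little, with a log2 ratio of replicate 2 to replicate 1 of -0.05 (exact 95% interval -0.07 to -0.03).

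Mir107 came next by the mean, but with a wide gap between the libraries. It had 4191 reads (850.2 CPM) in replicate 1 and 13197 reads (2971 CPM) in replicate 2, or 1911 ± 1499.9 CPM. Replicate 2 was the higher one, and the gene ranked 101st in replicate 1 and 53rd in replicate 2. Mir103-1 and Mir103-2, the precursors of miR-103, had the fewest reads of the 6 genes. Mir103-2 had 33 and 109 reads (6.69 and 24.5 CPM, mean 15.6 ± 12.6), and Mir103-1 had 8 and 16 reads (1.62 and 3.60 CPM, mean 2.61 ± 1.40). Of the 6 genes only Mir103-1 did not reach 10 reads in each library, the level used here for a gene to count as detected. The counts of this group came almost wholly from Mir107. It had 99.0% of the summed reads of the Pank-hosted genes in replicate 1 (Wilson 95% interval 98.7 to 99.3%) and 99.1% in replicate 2 (98.9 to 99.2%). These are shares of gene counts, which leave out exact miR-103-3p reads of up to 24 bases. Exact miR-107-3p reads are kept from 22 bases on, so the shares are not those of the mature microRNAs. Of the reads assigned to the miR-103 precursors, Mir103-2 had 80.5% in replicate 1 (66.0 to 89.8%) and 87.2% in replicate 2 (80.2 to 92.0%).

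The miR-101 genes stood between Mir107 and the miR-103 precursors by the mean. Mir101b had 4216 reads (855 CPM) in replicate 1 and 4363 reads (982 CPM) in replicate 2, or 919 ± 89.9 CPM. Mir101a had 2621 reads (532 CPM) in replicate 1 and 777 reads (175 CPM) in replicate 2, or 353 ± 252 CPM. Mir101b was thus above Mir101a in both libraries, by 1.61 times in replicate 1 and 5.62 times in replicate 2. Mir101a made up 38.3% of the pair's reads in replicate 1 (Wilson 95% interval 37.2 to 39.5%) and 15.1% in replicate 2 (14.2 to 16.1%). The pair as a whole differed far less than Mir101a, with 1387 CPM in replicate 1 and 1157 CPM in replicate 2.

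**Figure D1:**
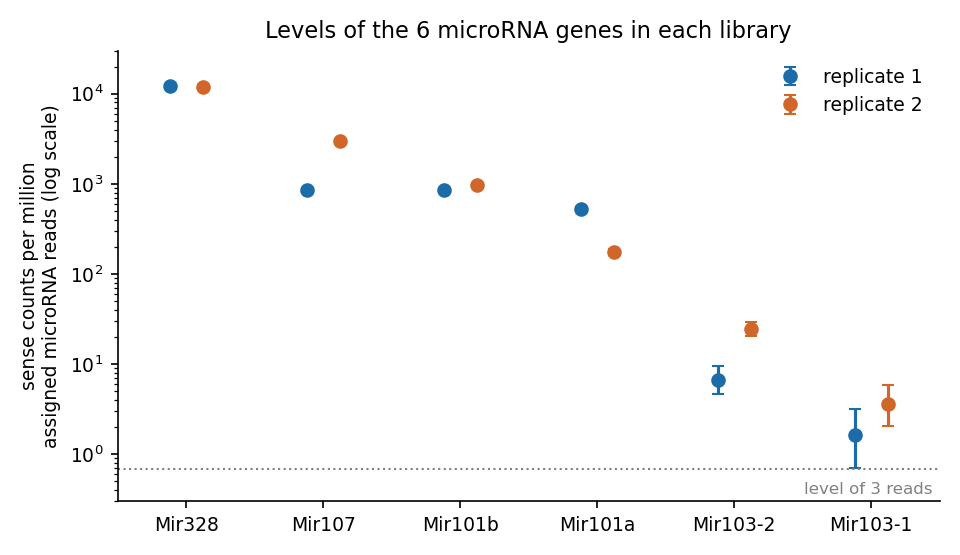
Sense CPM (log scale) of the 6 genes in each library. Points are single libraries, bars are exact Poisson 95% intervals of the count, and the dotted line is the level of 3 reads in replicate 2 (0.675 CPM). Mir328 stands near 12036 CPM in both libraries, Mir107 and Mir101a lie far apart between them, and Mir103-1 and Mir103-2 are lowest.

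By mean level the order was Mir328, Mir107, Mir101b, Mir101a, Mir103-2 and Mir103-1. It is an order of gene counts, and the counts of Mir103-1 and Mir103-2 leave out exact miR-103-3p reads that match both genes. An exact permutation test of 2 values against 2 cannot pass 0.05, since its smallest two-sided p is 0.333. It also ignores that the genes were measured in the same libraries. The order was therefore not tested and was read from whether the libraries of neighbouring genes overlap. Only Mir107 and Mir101b overlapped. Their levels in replicate 1 were 850.2 and 855 CPM, a ratio of 0.994, whereas in replicate 2 Mir107 was 3.02 times Mir101b. Mir328 exceeded Mir107 by 14.4 times in replicate 1 and by 3.98 times in replicate 2. Mir101a exceeded Mir103-2 by 79.4 and 7.13 times. The distances thus differed between libraries even where the order was the same. All 6 genes together took 1.45% of the assigned reads in replicate 1 and 1.60% in replicate 2, and without Mir328 they took 0.225% and 0.416%.

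Replicate 2 was compared with replicate 1 by an exact two-sided binomial test on the reads of each detected gene, adjusted by Benjamini-Hochberg over the 417 genes detected. It compares these libraries and not conditions. At these depths it picks up small differences: 59.2% of all detected genes were called, 24.7% as higher and 34.5% as lower in replicate 2. All 5 detected members were called, 3 as higher (Mir107, Mir103-2 and Mir101b) and 2 as lower (Mir101a and Mir328). Size tells more than the call, since 11.8% of all detected genes were at least 2-fold apart in the libraries, against 3 of the 5 members. The median detected gene was 1.29-fold apart and the median member 3.04-fold.

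Genes of the Pank introns were higher in replicate 2. Mir107 was higher by a log2 ratio of 1.81 (exact 95% interval 1.76 to 1.86), which is 3.49-fold, and its adjusted p was too small for the software to represent. Mir103-2 was higher by 1.87 (1.30 to 2.48), or 3.67-fold, with an adjusted p of 4.02e-12 in the exact binomial test. The interval of Mir103-2 holds the value of Mir107. Their hairpins share a stretch of 24 bases, and its part in this likeness was not tested. Mir103-1 had a log2 ratio of 1.15 with an interval of -0.16 to 2.58, and was left out of the adjusted test for want of reads. Without the filter on low counts its adjusted p was 0.158 in the exact binomial test. Its interval holds both no difference and the values of the others. By the width of the gap Mir103-2 and Mir107 ranked 11th and 12th of the 417 detected genes.

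The miR-101 genes differed in opposite directions. Mir101a was lower in replicate 2 by a log2 ratio of -1.60 (exact 95% interval -1.72 to -1.49), with an adjusted p of 7.59e-191 in the exact binomial test, and was 3.04-fold higher in replicate 1. It ranked 21st of 417 by the width of the gap. Mir101b was slightly higher in replicate 2, by 0.20 (0.14 to 0.26), or 1.15-fold (adjusted p = 4.21e-10, exact binomial test). These intervals do not overlap. The pair's sum had a log2 ratio of -0.26 (-0.31 to -0.21).

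Mir328 differed least of the members. Its adjusted p of 1.06e-08 in the exact binomial test came with a 1.04-fold higher level in replicate 1, and under scaling by TMM factors the log2 ratio was -0.0030 with an adjusted p of 0.809. By width its gap ranked 381st of the 417 genes.

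**Figure D2:**
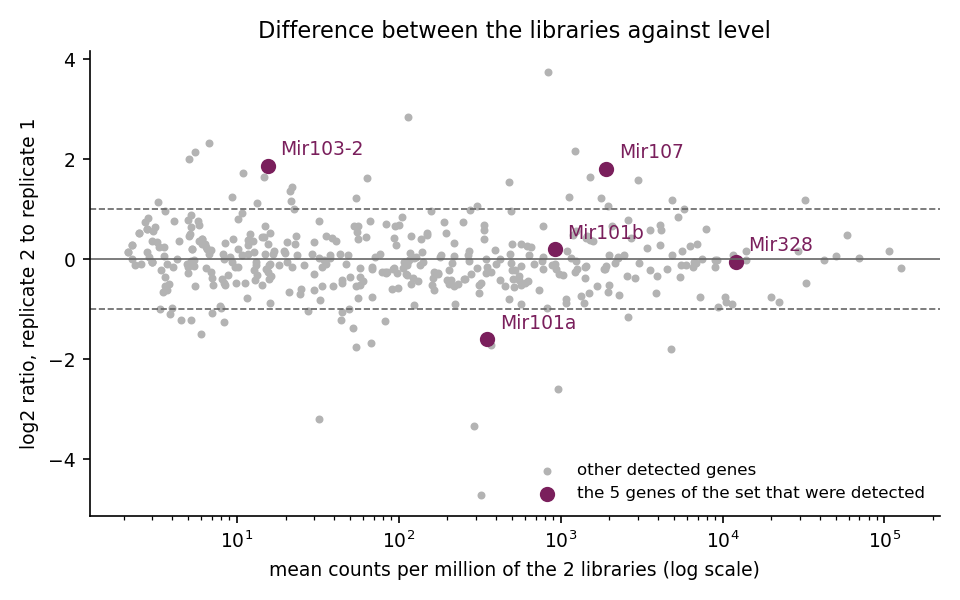
Log2 ratio of replicate 2 to replicate 1 against the mean CPM of the libraries (log scale) for the 417 detected genes, with the 5 detected genes of the set named and dashed lines at 2-fold. Mir103-2 (1.87) and Mir107 (1.81) lie above the upper line, Mir101a (-1.60) below the lower line, and Mir101b and Mir328 near 0.

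Marker genes of several cell types also differed between the libraries. The red blood cell list (3 of 3 genes detected, none at 0) summed to 602 CPM in replicate 1 but only 88.5 CPM in replicate 2, the direction of Mir101a. Most of that sum was Mir451a (529 and 52.2 CPM), and Mir144 had the same direction (57.8 and 6.30 CPM), whereas Mir486 had the opposite one (15.0 and 29.9 CPM). Of the 8 detected neuronal genes, 5 were called lower in replicate 2, among them Mir137 (12338 and 6351 CPM) and Mir128-1 (13556 and 7493 CPM). Mir132 was called higher, and 2 were not called. Over all 417 detected genes, 34.5% were called lower and 24.7% higher. The oligodendrocyte list (2 of 2 detected, none at 0) summed to 3387 and 5618 CPM, the direction of Mir107 and Mir103-2. Their part in the differences was not tested. The vascular list (3 of 3 detected) stayed at 20418 and 21812 CPM, and the list for microglia and leukocytes (3 of 3 detected) at 1214 and 1030.1 CPM. In bulk tissue, fewer cells of a type and less RNA per cell cannot be told apart.

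How far the counts stand for the mature microRNAs depends on read length, because reads that match several places are outside the gene counts. Exact reads running from the 5′ end of each mature arm into its hairpin were matched to all 2202 annotated microRNA hairpins, on both strands. A read of 18 to 21 bases from miR-103-3p or miR-107-3p matched 3 genes, Mir103-1, Mir103-2 and Mir107. At 22 bases, where G22C comes in, a miR-107-3p read matched Mir107 alone, while a miR-103-3p read still matched Mir103-1 and Mir103-2. Only from 25 bases on, beyond the mature end, did a miR-103-3p read match 1 gene. Reads of the 5p arms matched 1 gene from 18 bases on. The full-length miR-103-3p of 23 bases can therefore not be assigned to 1 gene by exact matching. With reads of several places set apart, the counts of Mir103-1 and Mir103-2 leave out such reads of their shared mature microRNA up to 24 bases, and those of Mir107 leave out such 3p reads up to 21 bases. The tables do not separate the arms, so the share of 5p reads in these counts is not known.

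For the miR-101 genes reads of 18 bases or more from the 5′ end of either mature 3p arm matched 1 microRNA gene. The hairpins of Mir101a and Mir101b share a stretch of 20 bases that ends before A16G. Mir101c, a further annotated gene, shares 19 bases with Mir101a, and had 0 reads in either library; a count of 0 allows a level of 0.609 CPM in the first library and 0.675 CPM in the second. Sequence outside annotated transcripts was not searched. Mir328 shares no stretch of 20 bases with another annotated microRNA gene.

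**Figure D3:**
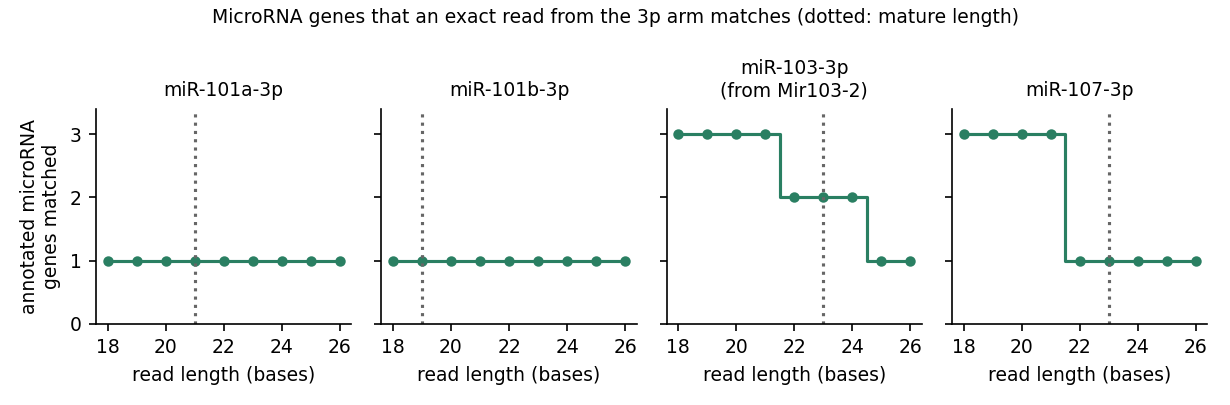
Number of annotated microRNA genes that hold an exact read of 18 to 26 bases starting at the 5′ end of each 3p arm, with the mature length dotted. The miR-101 arms match 1 gene at every length, miR-107-3p 3 genes up to 21 bases and 1 from 22 bases, and miR-103-3p 3, then 2, and 1 gene from 25 bases.

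Shared sequence and the gap between the libraries were set side by side. Of the detected genes, 104 share 20 bases with another annotated microRNA gene. These had a median log2 ratio of -0.15 and were a median of 1.43-fold apart. The other 313 had a median log2 ratio of -0.04 and a median of 1.26-fold. At least 2-fold apart were 15.4% of the genes with shared sequence and 10.5% of the others. The share of reads mapping to several places was 38.5% in replicate 1 and 33.0% in replicate 2, and its part in the Mir107 and Mir103-2 values was not tested.

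The reported targets can be read for seed matches in the GENCODE M21 transcripts. The 3′ UTR of the App transcript used, of 888 bases, holds 1 match to the miR-101a-3p seed (motif GTACTGT) and 2 to the miR-101b-3p seed (TACTGTA). The first pair overlaps, since the seeds are shifted by 1 base. It is shown with 10 bases on either side because the same place pairs with both miR-101 arms, followed by the other one; capitals mark the motif on the messenger strand.

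App, match to miR-101a-3p (chr16:84955060-84955086, minus strand): tgggttttgtGTACTGTaaaaaaaaaa

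App, match to miR-101b-3p (chr16:84954770-84954796, minus strand): gactgcatctTACTGTAcagattgctg

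The first match starts 255 bases into the UTR and is followed by an A, the base preferred opposite microRNA base 1. The second starts at base 545. Of the 10085 3′ UTRs at least as long, cut to 888 bases, 5.83% hold GTACTGT and 7.77% hold TACTGTA. The match to the seed of miR-103-3p and miR-107-3p, ATGCTGC, is not among the letters of the App window and is in 7.69% of UTRs cut to that length. Only the messenger strand was searched.

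Bace1 shows the reverse. In the 3′ UTR of the Bace1 transcript used, of 4104 bases, ATGCTGC occurs 2 times, and neither miR-101 motif of 7 bases occurs. Both places are shown, as they are where miR-107-3p and miR-103-3p could pair by seed.

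Bace1, first match to miR-103-3p and miR-107-3p (chr9:45862630-45862656, plus strand): actctccaaaATGCTGCctttctgggg

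Bace1, second match (chr9:45863207-45863233, plus strand): ctagtgctggATGCTGCacagttgaag

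They start at bases 2345 and 2922 of the UTR, and the second is followed by an A. Of the 1156 3′ UTRs that reach 4104 bases, cut to that length, 26.9% hold ATGCTGC, 25.2% hold GTACTGT and 31.4% hold TACTGTA. A UTR this long thus holds such a motif often. Another Bace1 transcript, with an annotated 3′ UTR of 2189 bases, holds 0 copies of ATGCTGC, and another App transcript, with 5646 bases, holds 1. A match is a match of letters, and neither binding nor repression was measured.

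**Figure D4:**
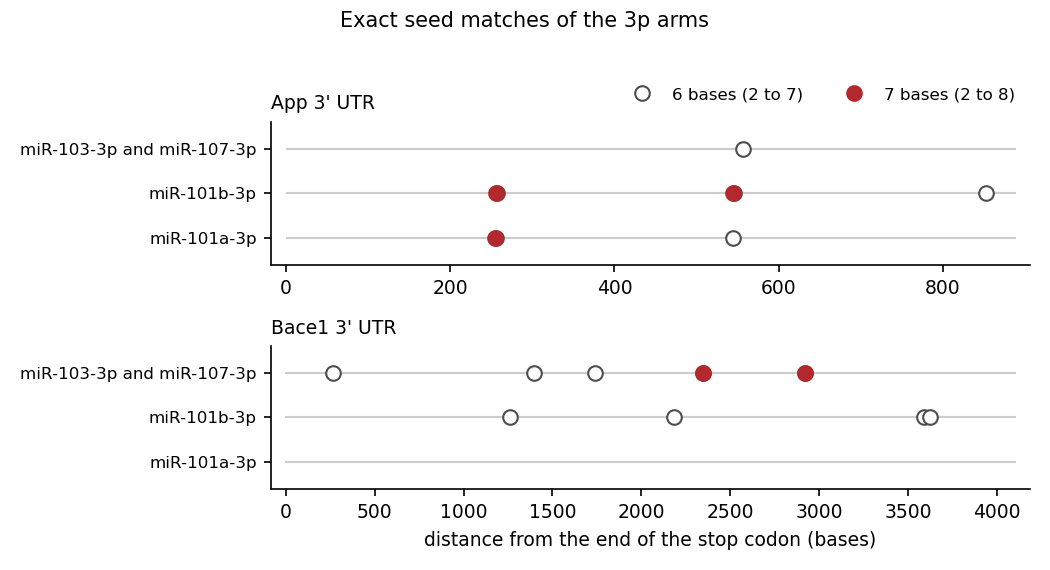
Exact seed matches of the 3p arms along the 3′ UTRs of App (888 bases) and Bace1 (4104 bases), by distance from the stop codon in bases. Filled points match 7 bases (2 to 8) and open points match 6 bases (2 to 7); the filled points of the miR-101 arms are in App and those of miR-103-3p and miR-107-3p in Bace1.

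The genes nearest to each member in the plane of log2(CPM + 1) of the 2 libraries were found among the other detected genes, 2 for each. Mir328 lay beside Mir652 (distance 0.05) and Mir151 (0.06), which like it were nearly equal in both libraries. Mir101b lay beside Mir431 (0.21) and Mir323 (0.24). Mir101a lay closest to Mir1298 (0.09), at 566 and 173 CPM, and next to Mir376c (0.66). Mir107 had no close neighbour: Mir219a-2, an oligodendrocyte microRNA, was at 0.41 with 1064 and 2501 CPM, and Mir222 was at 0.42 with 737 and 2309.7 CPM. Mir103-2 lay beside Mir3083 (0.15) and Mir3069 (0.49), and Mir103-1 beside Gm23873 (0.21) and Mir8101 (0.22), both at 10 reads in replicate 1. With 2 libraries such nearness describes level and gap only.

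Other microRNA genes reported in work on App or Bace1 give the scale. The list holds 27 genes, all annotated, of which 25 were detected, and it took 2.64% of the assigned reads in replicate 1 and 2.71% in replicate 2. In the exact binomial test adjusted over all detected genes, 6 were called higher in replicate 2, 11 were called lower and 8 were not called, beside 24.7% higher and 34.5% lower over all 417 detected genes. Their median gap was 1.34-fold, near the 1.29-fold of all detected genes, and 4 of the 25 were at least 2-fold apart, beside 11.8% of all detected genes. The 3 highest were Mir29a (14018 ± 158 CPM), Mir485 (2275 ± 27.4 CPM) and Mir34a (1972 ± 977 CPM), and the lowest was Mir124a-3, with 3 and 0 reads. Only Mir29a stood above Mir328. Mir107 was below 3 of the 27 by the mean, Mir101b below 7 and Mir101a below 9. The place of Mir107 differed between the libraries. In replicate 1 Mir107 (850.2 CPM) was below Mir485 (2255 CPM) and Mir34a (1281 CPM). In replicate 2 Mir107 (2971 CPM) was above both (2294 and 2663 CPM). All these places are those of gene counts, which leave out reads mapping to several places. Genes with numbered copies, such as those of Mir124a, Mir9, Mir29b and Mir16, can therefore rank lower than their mature microRNAs would. Mir153, reported for App, showed the direction of Mir101a, with 1643 CPM in replicate 1 and 272 CPM in replicate 2 (log2 ratio -2.60). Mir298, reported for Bace1, showed that of Mir107, with 446 and 2004 CPM (2.17). Mir29a, Mir485 and Mir384 of the same list were nearly equal in both libraries, with log2 ratios of -0.02, 0.02 and -0.04. These last examples were chosen after their values were seen.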

How the data were processed

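Small RNA of 2 cortex libraries was sequenced. The deposited tables give raw read counts per microRNA gene, made by the authors against mm10 and GENCODE M21, per the notes deposited with the files. Aligner and counter: not given in the sources used here. Sense counts were used, and lines of unassigned reads stayed out of library sizes. No model of 2 groups could be fitted, so libraries were compared by exact binomial tests (scipy 1.17.1) with Benjamini-Hochberg adjustment over genes that reached 10 reads in both libraries and a threshold of 0.05. Alternatives used TMM factors (edgeR 4.0.16) and DESeq2 1.42.0 size factors (R 4.3.3). In simulated counts for the comparison of replicate 2 with replicate 1 (425 genes), which held counting error alone, 85.1% of 2-fold and 100.0% of 4-fold changes were called, and 0.877% of unchanged genes. Depth was 4929428 and 4441328 assigned reads, so 3 reads stand for 0.609 and 0.675 CPM.

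Gene symbols and coordinates come from GENCODE M21, mature sequences from RefSeq, and 3′ UTRs from GENCODE transcripts after the stop codon, 1 transcript per gene, by APPRIS rank and then length. All 6 members are named, with their 2 nearest genes, genes sharing a seed, and the 3 highest genes of the list of other App and Bace1 regulators; the rest of that list is given as counts and a range. The members and lists were chosen with earlier results of these data known.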

Additional observations from a re-analysis of the deposited data

How the results depend on the processing

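Of the recomputed values none changed sign, 100 kept their call or stayed the same by the rule for their kind, 17 moved and 1 lost its call. Levels and shares were set against the SD of the 2 libraries, and numbers of sequence matches moved with any change. Values of 1 library alone always lie within that SD, so their place among the 100 was fixed in advance and shows nothing. Under TMM factors Mir328 no longer passed the threshold (log2 ratio -0.0030, adjusted p = 0.809, exact binomial test). Over its other alternatives the adjusted p of Mir328 ranged from 1.93e-08 to 0.00131. With reads mapped to several places in the library size, all 6 levels were lower, since the divisor is larger: Mir328 stood at 5294 CPM, Mir107 at 842, Mir101b at 404, Mir101a at 155, Mir103-2 at 6.89 and Mir103-1 at 1.15 CPM. In the column without regard to strand Mir328 stood at 12961 CPM and the 6 genes at 1.64% of the reads, since fewer reads are assigned in it. Cut to 18 or 20 bases, miR-103-3p and miR-107-3p matched 3 genes each. With seeds of 6 bases, the App UTR held 2 matches for miR-101a-3p, 3 for miR-101b-3p and 1 for miR-103-3p and miR-107-3p. Of 3′ UTRs cut to 888 bases, 26.3%, 25.7% and 33.1% hold these motifs. The Bace1 UTR held 4 for miR-101b-3p and 5 for miR-103-3p and miR-107-3p. Of 3′ UTRs cut to 4104 bases, 76.8% and 74.6% hold these motifs, so such matches are common. In the transcripts with the longest other 3′ UTR, an alternative chosen after seeing the data, App held 2 matches for miR-101a-3p and 1 for miR-103-3p and miR-107-3p, and Bace1 held 0 for the latter. With either library alone, Mir107 stood at 850.2 or 2971 CPM and Mir101a at 532 or 175 CPM. No paired analysis of conditions was possible because the study has 1 group. Depth limits Mir103-1, with 8 and 16 reads.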
